A study of Mus musculus with 6 samples.

Results

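The genes that drive a cell from G2 through mitosis, kinesins left to one side, were read by RNA sequencing in primary smooth muscle cells of mouse vessels, the contractile cells of the artery wall, grown in culture from a commercial stock. The group was set by a list of 49 gene symbols, put together with earlier results of these data known, and the rule itself applies no measured value. Of these, 47 had a row among the 23197 genes of the table, and all 47 passed the filter on low counts, which left 13234 genes. The members without a row were Bub3, which binds the checkpoint kinase Bub1 at kinetochores, and Prc1, which bundles microtubules of the central spindle. In GENCODE M21 all exonic bases of both lie under the span of another gene on chromosome 7 (Fgfr2 for Bub3, Rccd1 for Prc1), and neither is analysed here. The cells were either transfected with a negative control (3 libraries) or with siRNA against Arid3a (3 libraries, numbered #1 to #3 in the labels), at about 30% density and with 24 h of incubation. The labels do not say whether these numbers are different siRNAs, nor whether the libraries come from separate cultures, so the p-values reflect only how far these 6 samples spread, and that spread may be technical. Whether the angiotensin II that the labels mention for a disease model was given to any of the 6 is not said.

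Entry into mitosis is driven by Cdk1 bound to cyclins A and B, released from inhibition by Cdc25 phosphatases and reinforced by the Plk1 and Aurora kinases. Condensins compact the chromosomes, kinetochores tie them to the spindle, and a checkpoint holds back the anaphase-promoting complex until every kinetochore is attached. That complex then marks cyclin B and securin for destruction, separase cuts the cohesin rings, and the cell divides along the central spindle. Most of the genes are transcribed together late in the cell cycle through the MuvB complex with B-Myb and FoxM1, and are silenced in resting cells by the DREAM complex. Smooth muscle cells of a healthy artery rarely divide, and their return to the cell cycle is a known feature of culture and of vascular injury. Their mRNA therefore reflects how many cells of a culture are in G2 or mitosis as well as how much each such cell holds, and in bulk RNA fewer such cells and less RNA per cell cannot be told apart.

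A sequence feature that the choice of genes did not use was present in most members. RefSeq promoter windows on GRCm38.p6, from 250 bases before to 50 after the annotated start, were at hand for 41 of the 49 named genes. The letters TTTGAA, the core of the cell cycle genes homology region (CHR) that MuvB binds, stood on either strand (TTTGAA or TTCAAA) in 27 of the 41 windows (65.9%), against 17.9% of 32851 windows of the same length. Each member was counted with 1 window, while the 32851 windows cover 27025 gene symbols, so some genes count there more than once. The letters CCAAT, the site of the factor NF-Y, stood on either strand (CCAAT or ATTGG) in 31 of 41 (75.6%), against 37.4%. Both were present in 25 of 41 (61.0%), against 6.95%. The variant TTCGAA stood in 5 of 41 windows, against 1.56% of all. In 24 of the 27 members with TTTGAA a match began between 50 bases before and 50 after the start. At least 2 CCAAT matches were present in 20 members, and 8 windows held no match to the 3. A match is a string of letters, not a measured binding site. The 6 windows below run from 120 bases before to 30 after the start, 5′ to 3′, with TTTGAA and CCAAT matches of either strand in capitals. The first 4 hold both motifs, and Cenpf and Mad2l1 are shown because they had the lowest and one of the highest log2 fold changes among the kinetochore genes.
Ccnb2, chr9:70421525-70421674, minus strand: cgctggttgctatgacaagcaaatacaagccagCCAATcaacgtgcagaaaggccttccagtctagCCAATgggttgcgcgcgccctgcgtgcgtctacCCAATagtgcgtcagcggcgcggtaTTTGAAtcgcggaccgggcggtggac
Cdc20, chr4:118437314-118437463, minus strand: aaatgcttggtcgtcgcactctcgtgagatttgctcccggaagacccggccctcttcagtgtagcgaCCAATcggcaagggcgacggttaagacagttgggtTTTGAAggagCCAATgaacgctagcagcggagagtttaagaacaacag
Cdk1, chr10:69352883-69353032, minus strand: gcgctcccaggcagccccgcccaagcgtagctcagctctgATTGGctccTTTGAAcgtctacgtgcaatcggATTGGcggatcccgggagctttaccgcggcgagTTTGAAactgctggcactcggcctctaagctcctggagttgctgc
Hmmr, chr11:40733408-40733557, minus strand: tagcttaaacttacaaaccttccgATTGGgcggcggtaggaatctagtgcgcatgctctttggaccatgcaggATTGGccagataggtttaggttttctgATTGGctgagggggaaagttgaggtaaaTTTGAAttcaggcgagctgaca
Cenpf, chr1:189688057-189688206, minus strand: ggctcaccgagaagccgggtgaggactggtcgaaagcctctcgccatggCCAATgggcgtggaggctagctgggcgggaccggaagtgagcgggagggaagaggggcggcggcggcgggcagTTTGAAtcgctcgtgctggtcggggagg
Mad2l1, chr6:66535101-66535250, plus strand: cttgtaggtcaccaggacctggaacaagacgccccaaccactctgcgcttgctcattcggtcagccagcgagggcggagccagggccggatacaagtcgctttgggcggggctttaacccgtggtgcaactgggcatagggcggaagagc

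In Ccnb2 the 3 printed CCAAT matches precede a single TTTGAA just past the start, and Hmmr has the same order with the CCAAT letters on the other strand. Cdk1 holds alternating matches to both motifs. Cenpf has 1 CCAAT and 1 TTTGAA match in the printed stretch, and that of Mad2l1 has neither, which says only that these letters are not in this window. For Mad2l1, GENCODE M21 puts the gene start at base 66535390, past the end of the printed stretch at 66535250. The window searched does not reach that start. Among tested members with a window, TTTGAA was present in 17 of the 25 whose log2 fold change was below 0 and in 8 of the 14 above 0.

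**Figure D1:**
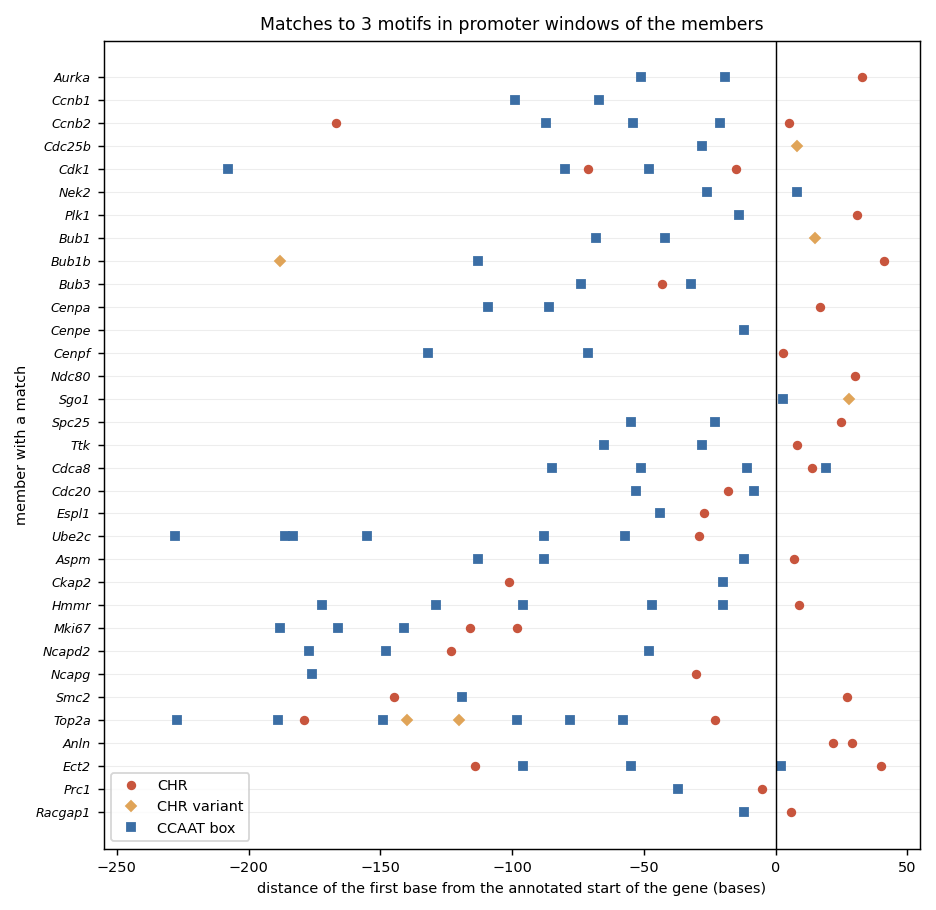
Position of each match to TTTGAA (CHR, circles), TTCGAA (CHR variant, diamonds) and CCAAT (squares) in the promoter windows of the members with at least 1 match; the x axis is the distance in bases from the annotated start and each row is a gene. CHR matches gather around the start, within 50 bases of it in 24 of 27 members, and most CCAAT matches lie before it.

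Total counts were 17029735 to 22799935 per library. Arid3a itself had 375, 370 and 391 reads in the controls (libraries 1, 2 and 3) and 380, 367 and 376 in libraries 1, 2 and 3 labelled siArid3a, a log2 fold change of −0.03 (SE 0.13; adjusted p = 0.943, edgeR; 95% interval −0.31 to 0.26). The groups overlapped, at 19.6 ± 2.94 and 19.3 ± 2.49 CPM (reads per 1e6 reads, CPM; SD, n = 3 each; two-sided exact permutation p = 0.9, the smallest possible being 0.1). A lower transcript level under its own siRNA was not seen, which goes against the label, so each direction given here is that of the libraries labelled siArid3a and not of measured Arid3a loss. Of 9 smooth muscle markers all had reads, with a summed level of 2303 to 2466 CPM in the controls and 2371 to 2827 CPM in the libraries labelled siArid3a, but Myh11 had 30 reads in all. Tagln, with most of its exonic bases under other genes, averaged 1.34 CPM. Fibroblast markers summed to 5433 to 7065 and 6072 to 7589 CPM, with Fn1 and Col1a1 the most abundant. Macrophage markers summed to 11.2 to 14.8 and 9.19 to 12.9 CPM, endothelial markers to 20.5 to 30.1 and 16.5 to 24.96 CPM, and pericyte markers to 49.7 to 60.5 and 42.8 to 57.5 CPM. Epithelial and mesothelial markers were lower in every library labelled siArid3a, at 130.8 to 149.3 CPM against 158.3 to 179.2 CPM in the controls. Their part in the results was not tested, nor was that of the adipocyte and neural markers, which stayed under 2 CPM.

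None of the 47 tested members passed the main edgeR test between the groups, and the 95% interval of each member's difference lay within 1.5-fold. The 47 members together held 6971, 7134 and 6822 CPM in control libraries 1, 2 and 3 and 6736, 6731 and 7260.1 CPM in libraries 1, 2 and 3 labelled siArid3a, where CPM are scaled by TMM, a factor for library composition. The highest and the lowest of the 6 sums were both libraries labelled siArid3a. No member passed the edgeR quasi-likelihood test at a Benjamini-Hochberg adjusted p under 0.05 over all genes (0 of 47), where 0% of the 13234 genes passed. The smallest adjusted p among the members was 0.141, for Cenpf. At an unadjusted p under 0.05 there were 8 members, 5 lower and 3 higher, or 17.02%, against 14.9% of all genes (7.57% lower and 7.36% higher). DESeq2 called 0 members and 2.06% of all genes with an adjusted p, and limma-voom called 0 members and 0% of all.

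The log2 fold changes of the members, positive where the libraries labelled siArid3a were higher, ran from −0.27 to 0.22 with a median of −0.02, and the interquartile range lay between −0.11 and 0.05. Over all genes the median was −0.01 and the interquartile range lay between −0.14 and 0.12. There were 30 members below 0 (63.8%), against 51.1% of all genes. The 3 control and the 3 libraries labelled siArid3a did not overlap in 12 members, 9 lower and 3 higher in the libraries labelled siArid3a, or 25.5%, against 20% of all genes (10.4% lower and 9.66% higher). The share at an unadjusted p under 0.05 was near that of all genes.

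As far as these 6 libraries spread, which may be technical, the precision was enough to bound the differences between them. The members were counted deeply, with 539 to 17160 reads per member and library, and the median coefficient of variation was 5.81% among controls and 5.89% among libraries labelled siArid3a, against 9.61% and 9.02% over all genes. The 95% interval of the fold change lay wholly within 1.5-fold in either direction for all 47 members, as for 70.7% of all genes. It lay within 1.25-fold for 35 of 47, against 34.7% of all genes. The outermost bounds were 0.745 times the control level, for Cenpf, and 1.33 times, for Smc2.

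**Figure D2:**
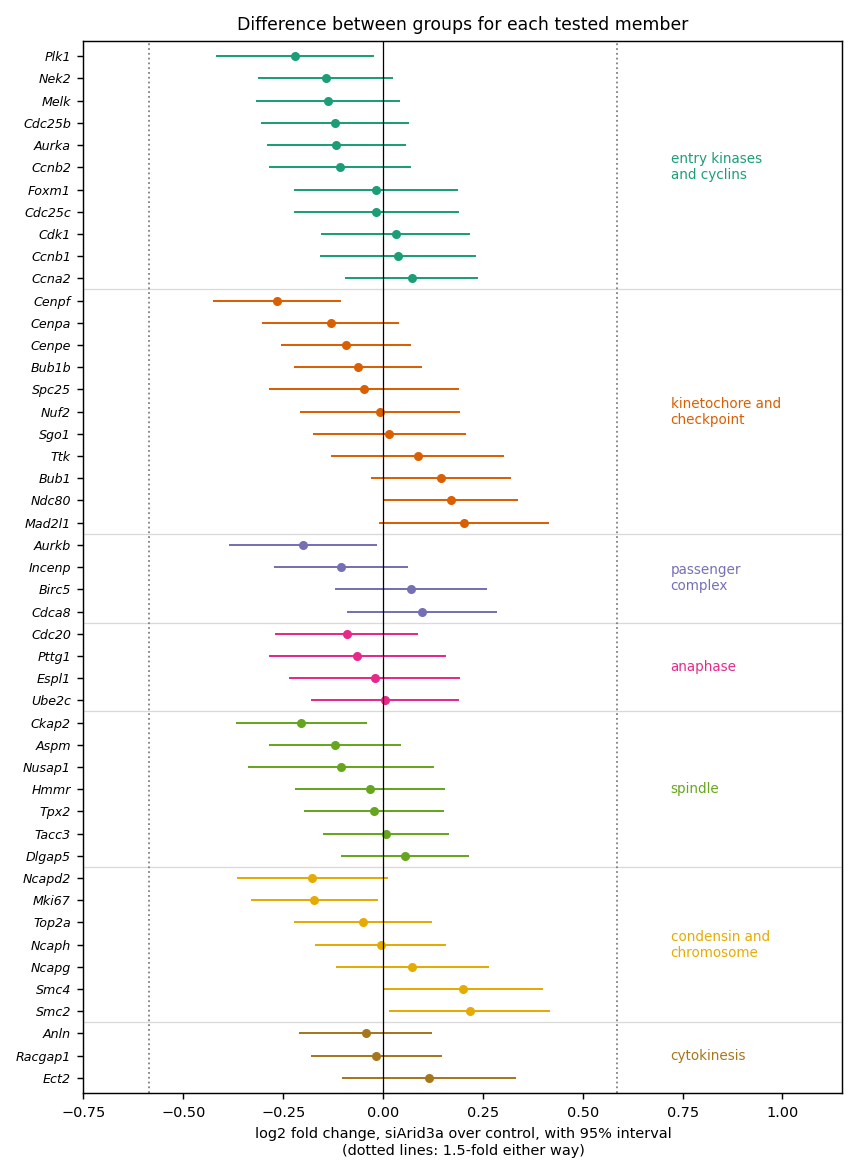
Log2 fold change (points) of the libraries labelled siArid3a over control with its 95% interval (lines) for each of the 47 tested members, coloured by function; the dotted lines mark 1.5-fold. Every interval lies between the dotted lines, and the points run from −0.27 for Cenpf to 0.22 for Smc2.

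The libraries labelled siArid3a did not lie together. As medians over the 47 members of the deviation from the control mean, on the log2(CPM + 0.5) scale, the libraries lay at −0.06, −0.06 and 0.03 in libraries 1, 2 and 3 labelled siArid3a and 0.01, 0.02 and −0.03 in control libraries 1, 2 and 3. Library 3 labelled siArid3a was thus above all controls and libraries 1 and 2 labelled siArid3a below all of them. Of the 47 members, 16 had all 3 libraries labelled siArid3a below the control mean, 6 had all 3 above it and 25 had them on both sides. Library 3 labelled siArid3a was the highest of the 6 for 18 of 47 members (38.3%, against 25.4% of all genes), and library 1 labelled siArid3a was the lowest for 16 (34.0%, against 11.2%). Without library 3 labelled siArid3a the median log2 fold change of the members was −0.07, and without library 1 labelled siArid3a it was −0.02.

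**Figure D3:**
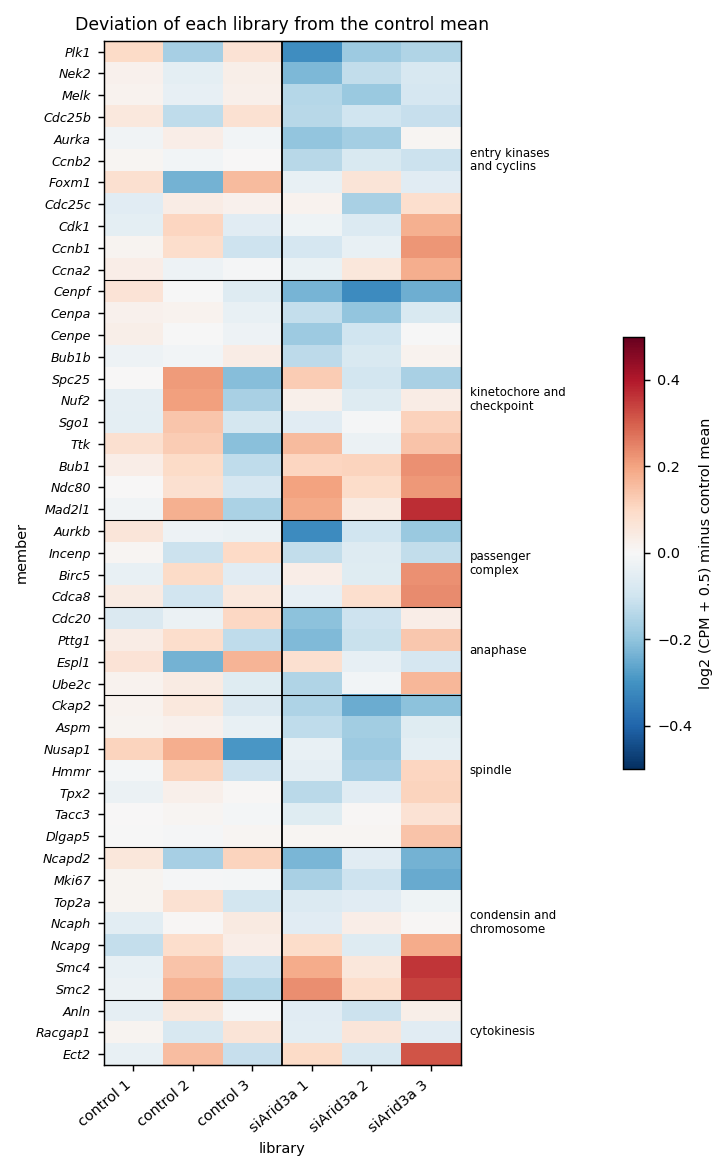
Deviation of each library (columns) from the mean of the 3 controls for each member (rows), in log2 (CPM + 0.5) units, red above and blue below. Cenpf, Ckap2 and Mki67 are blue in all 3 libraries labelled siArid3a and Smc2, Smc4 and Ndc80 are red in all 3, while 25 of the 47 members have libraries labelled siArid3a on both sides of the control mean.

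Levels between genes were compared per kilobase of exon, as control means with SD (n = 3). That length joins the exons of all annotated transcripts of a gene, and the counts may hold intronic reads. The part of either in the order of the genes was not tested. Top2a, the topoisomerase that untangles sister chromatids, stood highest at 81.9 ± 4.76 CPM per kb, above Cdc20 at 79.2 ± 5.04, Tpx2 at 73.3 ± 1.36, Cdk1 at 66.6 ± 4.32 and Ube2c at 62.6 ± 2.34 CPM per kb. The mean ± SD ranges of Top2a and Cdc20 overlapped, as did those of Cdc20 and Tpx2. At the other end were Cdc25c at 7.19 ± 0.257, Aspm at 7.53 ± 0.167 and Cenpf at 8.99 ± 0.412 CPM per kb. The mean ± SD ranges of Cdc25c and Aspm overlapped. Less than 90% of the exon sequence was clear of other genes' spans in 5 members: Ube2c (37.2%), Ccna2 (78.9%), Ncapg (86.6%), Cdc25c (87.3%) and Foxm1 (88.0%). Reads in shared spans can be missing from their counts, so their levels per length may be too low.

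**Figure D4:**
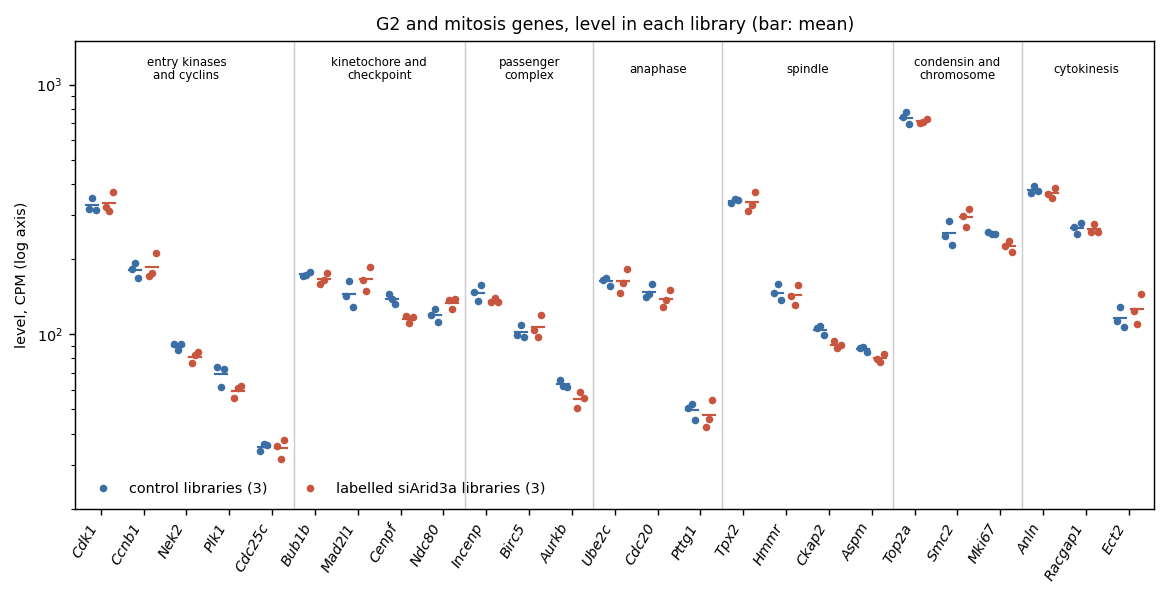
Level in CPM (log axis) of 25 members in each of the 3 control and 3 libraries labelled siArid3a (points) with the group mean (bars), ordered by function. The groups overlap for most members, and Top2a has the highest CPM of all members shown.

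Kinases, cyclins and their regulators had a median of −0.11, the lowest of the 7 groups in the test as reported, with 8 of 11 members below 0 and 0 of 11 past the test (edgeR; 1 at an unadjusted p under 0.05). Across the alternatives its median lay between −0.12 and −0.07. Spindle genes were lower than it with the depth block (−0.09) and without the GC and length trend (−0.11). Condensin and mitotic chromosome genes were also lower than it without that trend (−0.095). Without library 3 labelled siArid3a, anaphase genes were lower than it (−0.12) and spindle genes were level with it (both −0.10). Plk1, the Polo kinase that matures centrosomes and activates Cdc25, had 73.7, 61.5 and 72.6 CPM in control libraries 1, 2 and 3 and 55.5, 60.8 and 62.1 CPM in libraries 1, 2 and 3 labelled siArid3a. The libraries labelled siArid3a lay below control libraries 1 and 3, while control library 2 lay within their range. Its log2 fold change was −0.22 (SE 0.09; adjusted p = 0.279, edgeR). Plk1 (chromosome 7, 122159439 to 122169873, plus strand) has 56.0% GC in its longest transcript. Nek2, a centrosome-splitting kinase, had 91.2, 86.8 and 91.8 CPM in control libraries 1, 2 and 3 and 76.9, 82.4 and 84.9 CPM in libraries 1, 2 and 3 labelled siArid3a. No library labelled siArid3a reached the lowest control, and the log2 fold change was −0.14 (SE 0.08; adjusted p = 0.404, edgeR). Melk, a late cell cycle kinase, and Ccnb2, cyclin B2, showed the same separation, at −0.14 (SE 0.08) and −0.11 (SE 0.08). Ccnb2 varied little, with 47.3 ± 0.367 and 43.9 ± 0.967 CPM (SD, n = 3 each).

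Cdk1 and its main partners gave another order. Cdk1, the mitotic kinase itself, had 317, 353 and 315 CPM in control libraries 1, 2 and 3 and 323, 313 and 371 CPM in libraries 1, 2 and 3 labelled siArid3a. The groups overlapped and library 3 labelled siArid3a was highest, at a log2 fold change of 0.03 (SE 0.09; adjusted p = 0.901, edgeR). Ccnb1, cyclin B1, had 183, 193 and 168 CPM in control libraries 1, 2 and 3 and 171, 176 and 211 CPM in libraries 1, 2 and 3 labelled siArid3a. It too was highest in library 3 labelled siArid3a, and the log2 fold change was 0.04 (SE 0.09; adjusted p = 0.891, edgeR). Ccna2, cyclin A2, had 0.07 (SE 0.08). Aurka, the Aurora kinase of spindle poles, had −0.12 (SE 0.08), and the phosphatases Cdc25b and Cdc25c had −0.12 (SE 0.09) and −0.02 (SE 0.10). Foxm1, the transcription factor of the G2 program, had 175, 140.2 and 184 CPM in control libraries 1, 2 and 3 and 161, 173 and 159 CPM in libraries 1, 2 and 3 labelled siArid3a. Control library 2 was the lowest of the 6, and the log2 fold change was −0.02 (SE 0.10). The signs of Cdk1 and Ccnb1 turned with a block for library depth (Cdk1 to −0.02) and without library 3 labelled siArid3a (Cdk1 to −0.04 and Ccnb1 to −0.06).

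Kinetochore and checkpoint genes held both the lowest member and several of the highest. None of 11 passed (edgeR: 0 at an adjusted p under 0.05, 2 at an unadjusted p under 0.05), 6 lay below 0 and the median was −0.01. Alternatives gave medians from −0.06 to 0.09. The highest of these came without control library 2. Cenpf (chromosome 1, 189640606 to 189688086, minus strand) encodes a large coiled-coil protein that accumulates in G2 and sits on the outer kinetochore. It had 145, 139 and 133 CPM in control libraries 1, 2 and 3 and 118, 111 and 117 CPM in libraries 1, 2 and 3 labelled siArid3a. Every library labelled siArid3a was below every control, at 139 ± 6.35 and 115 ± 3.60 CPM (SD, n = 3 each). The log2 fold change was −0.27 (SE 0.07; adjusted p = 0.141, edgeR), with a 95% interval of −0.42 to −0.11, and the DESeq2 adjusted p was 0.0660. With each library's trend with GC content and transcript length removed, Cenpf passed, at −0.33 (edgeR adjusted p = 0.00769), as did the spindle gene Ckap2. That setting called 2 members of 47, both lower, and 3.44% of all genes.

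The Ndc80 complex, the rod that grips microtubule ends, gave values on both sides of 0. Ndc80 had 119, 126 and 112 CPM in control libraries 1, 2 and 3 and 137, 127 and 138 CPM in libraries 1, 2 and 3 labelled siArid3a. All libraries labelled siArid3a were above all controls, and the log2 fold change was 0.17 (SE 0.08; adjusted p = 0.318, edgeR). Its partner Nuf2 had 100.0, 119 and 92.1 CPM in control libraries 1, 2 and 3 and 105, 98.6 and 106 CPM in libraries 1, 2 and 3 labelled siArid3a. Its groups overlapped, with control library 2 the highest, and the log2 fold change was −0.01 (SE 0.09). Spc25, of the end that binds the kinetochore, had −0.05 (SE 0.11).

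Checkpoint proteins carried small positive and negative values. Mad2l1, which binds Cdc20 in the checkpoint complex, had 142, 163 and 129 CPM in control libraries 1, 2 and 3 and 165, 149 and 186 CPM in libraries 1, 2 and 3 labelled siArid3a. Library 3 labelled siArid3a was highest, but control library 2 lay above library 2 labelled siArid3a, and the log2 fold change was 0.20 (SE 0.10; adjusted p = 0.351, edgeR). Bub1, the kinase that recruits the checkpoint, had 125, 131 and 112 CPM in control libraries 1, 2 and 3 and 132, 133 and 144 CPM in libraries 1, 2 and 3 labelled siArid3a. No library labelled siArid3a was below any control, at 0.15 (SE 0.08). The Bub1-related Bub1b had 174 ± 4.15 and 166 ± 8.90 CPM (SD, n = 3 each) and a log2 fold change of −0.06 (SE 0.07; adjusted p = 0.742, edgeR). Ttk, the kinase at the head of the checkpoint, had 0.09 (SE 0.10), and Sgo1, the guardian of centromeric cohesin, had 0.02 (SE 0.09). Cenpa, the centromeric histone, did not overlap between groups at 68.7 ± 1.62 and 62.8 ± 2.72 CPM (SD, n = 3 each), with a log2 fold change of −0.13 (SE 0.08). Cenpe, on the list although it encodes a kinesin-like motor of the kinetochore, had −0.09 (SE 0.08).

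The chromosomal passenger complex, which corrects faulty attachments, divided evenly: 2 of its 4 genes lay below 0 and 2 above, 0 passed (edgeR; 1 at an unadjusted p under 0.05), and the median was −0.02. Under other settings the median was −0.05 to 0.01. Its kinase gene Aurkb (chromosome 11, 69045647 to 69051664, plus strand) had 65.8, 62.1 and 61.6 CPM in control libraries 1, 2 and 3 and 50.7, 58.8 and 55.5 CPM in libraries 1, 2 and 3 labelled siArid3a. Each library labelled siArid3a was below each control, and the log2 fold change was −0.20 (SE 0.09; adjusted p = 0.289, edgeR). Incenp, the scaffold, had 147, 136 and 157 CPM in control libraries 1, 2 and 3 and 134, 140.0 and 134 CPM in libraries 1, 2 and 3 labelled siArid3a. Control library 2 lay within the range of those labelled siArid3a, at −0.11 (SE 0.08; adjusted p = 0.550, edgeR). Birc5, or survivin, had 98.9, 108 and 97.6 CPM in control libraries 1, 2 and 3 and 104, 97.3 and 119 CPM in libraries 1, 2 and 3 labelled siArid3a. Only library 3 labelled siArid3a was above all controls, and the log2 fold change was 0.07 (SE 0.09; adjusted p = 0.755, edgeR). Cdca8, or borealin, had 0.10 (SE 0.09).

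Genes of the anaphase switch had a median of −0.04, with 3 of 4 below 0 and 0 past the test (edgeR; 0 at an unadjusted p under 0.05). The lowest and highest median over the alternatives were −0.12 and 0.01. Cdc20, the activator of the anaphase-promoting complex, had 141, 145 and 158 CPM in control libraries 1, 2 and 3 and 128, 138 and 151 CPM in libraries 1, 2 and 3 labelled siArid3a. The groups overlapped, and the log2 fold change was −0.09 (SE 0.08; adjusted p = 0.646, edgeR). Ube2c, the ubiquitin-conjugating enzyme of that complex, had 165, 168 and 156 CPM in control libraries 1, 2 and 3 and 147, 161 and 182 CPM in libraries 1, 2 and 3 labelled siArid3a. Its libraries labelled siArid3a spanned a wider range than the controls on both sides, at 0.00 (SE 0.09; adjusted p = 0.986, edgeR), and its sign turned under several settings. Pttg1, or securin, had 50.8, 52.5 and 45.3 CPM in control libraries 1, 2 and 3 and 42.3, 45.8 and 54.3 CPM in libraries 1, 2 and 3 labelled siArid3a, again with overlap and a log2 fold change of −0.06 (SE 0.10; adjusted p = 0.818, edgeR). Espl1, separase, had 98.7, 79.8 and 106 CPM in control libraries 1, 2 and 3 and 99.5, 91.6 and 88.9 CPM in libraries 1, 2 and 3 labelled siArid3a. Control library 2 was the lowest of the 6 in Espl1, as in Foxm1, and the log2 fold change was −0.02 (SE 0.10).

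Spindle genes lay below 0 in 5 of 7, with a median of −0.03 and 0 past the test (edgeR; 1 at an unadjusted p under 0.05). That median was −0.11 to −0.01 over the alternatives. Ckap2 (chromosome 8, 22168160 to 22185819, minus strand) encodes a microtubule-stabilising spindle protein and had 106, 108 and 99.3 CPM in control libraries 1, 2 and 3 and 93.8, 87.8 and 90.4 CPM in libraries 1, 2 and 3 labelled siArid3a. All libraries labelled siArid3a were below all controls, at 104 ± 4.62 and 90.6 ± 3.02 CPM (SD, n = 3 each). The log2 fold change was −0.20 (SE 0.08; adjusted p = 0.227, edgeR), with a 95% interval of −0.37 to −0.04, and after removal of the GC and length trend it was −0.27 (edgeR adjusted p = 0.0210). Aspm, a spindle pole protein, had 88.2, 88.6 and 85.1 CPM in control libraries 1, 2 and 3 and 79.9, 77.3 and 83.7 CPM in libraries 1, 2 and 3 labelled siArid3a. The groups were again separate, by a small gap, at −0.12 (SE 0.08; adjusted p = 0.475, edgeR).

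The abundant spindle genes differed less. Tpx2, which activates Aurora A on spindle microtubules, had 336, 349 and 344 CPM in control libraries 1, 2 and 3 and 313, 329 and 371 CPM in libraries 1, 2 and 3 labelled siArid3a. The libraries labelled siArid3a lay on both sides of the controls, at −0.02 (SE 0.08; adjusted p = 0.923, edgeR). Hmmr, a partner of Tpx2 at spindle poles, had 146, 158 and 137 CPM in control libraries 1, 2 and 3 and 142, 131 and 158 CPM in libraries 1, 2 and 3 labelled siArid3a. Those ranges overlapped almost wholly, at −0.03 (SE 0.09; adjusted p = 0.899, edgeR). Nusap1, which bundles spindle microtubules, had −0.10 (SE 0.11), with control library 3 low at 68.0 CPM against 89.9 and 94.4 CPM. Tacc3, of the clathrin bridges between spindle fibres, and Dlgap5, which stabilises fibres near chromosomes, had 0.01 (SE 0.07) and 0.06 (SE 0.07). Dlgap5 was higher in every library labelled siArid3a than in every control, at 134 ± 7.23 against 129 ± 0.743 CPM (SD, n = 3 each). Libraries 1 and 2 labelled siArid3a, at 129.8 and 129.9 CPM, stood almost level with control library 3 at 129.7 CPM. Library 3 labelled siArid3a had 142 CPM.

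Condensin and mitotic chromosome genes had a median of −0.01 with 4 of 7 below 0 and 0 past the test (edgeR). At an unadjusted p under 0.05 there were 3 of 7 (42.9%, against 14.9% of all genes), Smc2 and Smc4 higher and Mki67 lower. The subunits of condensin took different sides. The alternatives moved the median between −0.10 and 0.02. Smc2 (chromosome 4, 52439243 to 52488260, plus strand) and Smc4 encode the ATPase pair shared by both condensins. Smc2 had 247, 284 and 228 CPM in control libraries 1, 2 and 3 and 297, 268 and 319 CPM in libraries 1, 2 and 3 labelled siArid3a. Control library 2 lay above library 2 labelled siArid3a, and the other libraries labelled siArid3a were highest. The log2 fold change was 0.22 (SE 0.09; adjusted p = 0.290, edgeR). Smc4 followed it at 231, 261 and 220.3 CPM in control libraries 1, 2 and 3 and 269, 246 and 303 CPM in libraries 1, 2 and 3 labelled siArid3a. The same libraries overlapped, and the log2 fold change was 0.20 (SE 0.09; adjusted p = 0.320, edgeR). The condensin I subunit gene Ncapd2 had 219, 188 and 228 CPM in control libraries 1, 2 and 3 and 179.8, 203 and 179 CPM in libraries 1, 2 and 3 labelled siArid3a. Here control library 2 was the lowest control and lay below library 2 labelled siArid3a, at −0.18 (SE 0.09; adjusted p = 0.357, edgeR). The other condensin I genes Ncapg and Ncaph had 0.07 (SE 0.09) and −0.01 (SE 0.08). The GC content of the longest transcript was 39.7% for Smc2, 40.2% for Smc4 and 54.0% for Ncapd2, and after removal of the GC and length trend Smc2 had a log2 fold change of 0.11. Over all members the median GC was 47.2% for those below 0 and 43.0% for those above.

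Mki67, the gene of the Ki-67 protein that coats mitotic chromosomes and marks dividing cells, had 256, 253 and 252 CPM in control libraries 1, 2 and 3 and 227, 236 and 213 CPM in libraries 1, 2 and 3 labelled siArid3a. The controls were within 5 CPM of each other and all libraries labelled siArid3a were lower, at 254 ± 2.32 and 225 ± 11.7 CPM (SD, n = 3 each). The log2 fold change was −0.17 (SE 0.07; adjusted p = 0.290, edgeR). Top2a (chromosome 11, 98992943 to 99024189, minus strand) had 744, 778 and 693 CPM in control libraries 1, 2 and 3 and 703, 709.7 and 726 CPM in libraries 1, 2 and 3 labelled siArid3a. The libraries labelled siArid3a lay within the control range, at −0.05 (SE 0.08; adjusted p = 0.813, edgeR).

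Cytokinesis genes, 3 tested, had a median of −0.02 and 0 past the test (edgeR; 0 at an unadjusted p under 0.05). With other settings the median ranged from −0.03 to 0.02. Anln, the anillin scaffold of the contractile ring, had 367, 393 and 375 CPM in control libraries 1, 2 and 3 and 364, 352 and 386 CPM in libraries 1, 2 and 3 labelled siArid3a. Racgap1, of the centralspindlin complex, had 268, 252 and 279 CPM in control libraries 1, 2 and 3 and 256, 277 and 256 CPM in libraries 1, 2 and 3 labelled siArid3a. Both overlapped between groups, at −0.04 (SE 0.08; adjusted p = 0.838, edgeR) and −0.02 (SE 0.08; adjusted p = 0.941, edgeR). Ect2, the exchange factor that switches on RhoA at the division plane, had 113, 129 and 107 CPM in control libraries 1, 2 and 3 and 124, 109.6 and 144 CPM in libraries 1, 2 and 3 labelled siArid3a. Only library 3 labelled siArid3a lay above all controls, and the log2 fold change was 0.12 (SE 0.10; adjusted p = 0.631, edgeR).

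Other genes of the same pathway, 110 in 6 lists, were also without a call in edgeR. Of 108 tested (Wee1 and Haspin had no row), edgeR called 0 and limma-voom called 0 genes of the table, and 17 had an unadjusted p under 0.05, 8 lower and 9 higher, or 15.7%, against 14.9% of all genes. There were 45 below 0 and 63 above, with a median of 0.03. DESeq2 called 2 of the 108, Pds5a (higher) and Iqgap3 (lower), where it called 2.06% of all genes. The 95% interval lay within 1.5-fold for 105 of the 108. The groups did not overlap in 26 (24.1%), against 20% of all genes.

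Genes of the regulators known to bind CHR and CCAAT sites, and of their relatives, mostly had values above 0. Of 15 genes of the MuvB, B-Myb and DREAM list, 14 had positive values, with a median of 0.15 (12 to 14 positive over the scalings and all other alternatives). The 1 below 0 was 6.67% of the list, against 51.1% of all genes. In edgeR 0 passed, and 3 (20%) had an unadjusted p under 0.05, against 14.9% of all genes. The median was 0.10 without library 3 labelled siArid3a and at most 0.17 over the alternatives. Nfyb, a subunit of the CCAAT-binding factor, had 56.7, 60.9 and 52.1 CPM in control libraries 1, 2 and 3 and 67.9, 60.9 and 75.9 CPM in libraries 1, 2 and 3 labelled siArid3a. The libraries labelled siArid3a were all above the controls, but library 2 of each group stood almost level, and the log2 fold change was 0.27 (SE 0.10; adjusted p = 0.210, edgeR). E2f5, a repressor E2F of the DREAM complex, had 20.6, 18.3 and 18.4 CPM in control libraries 1, 2 and 3 and 23.1, 21.6 and 24.8 CPM in libraries 1, 2 and 3 labelled siArid3a. Its groups did not overlap, at 0.28 (SE 0.11; adjusted p = 0.239, edgeR). Mybl2, the gene of B-Myb, had 0.18 (SE 0.10), and Lin54, the MuvB subunit that reads the CHR, had 0.17 (SE 0.09). In the same list, Rbbp4 and Lin9 had 0.18 (SE 0.09) and 0.13 (SE 0.12). Lin52 and Rbl2 lay near 0, at 0.01 (SE 0.11) and 0.00 (SE 0.12). Lin37, the 1 below 0, had −0.06 (SE 0.18).

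In the list of G2 brakes and other entry regulators 4 of 13 lay below 0 (30.8%, against 51.1% of all genes). The median was 0.03 and 0 had an unadjusted p under 0.05. Without the GC and length trend 7 of 13 lay below 0, with a median of −0.0021, and single libraries left out gave medians from 0.0092 (without library 3 labelled siArid3a) to 0.051 (without control library 2). Plk4, the kinase of centriole duplication, had 0.18 (SE 0.10; adjusted p = 0.438, edgeR), and Gtse1, which stabilises microtubules in G2, had −0.13 (SE 0.10; adjusted p = 0.567, edgeR). In the anaphase-promoting complex list 11 of 16 lay below 0 (68.8%), with a median of −0.06 (−0.07 to −0.03 over the alternatives). There 3 had an unadjusted p under 0.05 (18.8%, against 14.9% of all genes). Its core subunits Anapc13 and Anapc2 had −0.40 (SE 0.17; adjusted p = 0.279, edgeR) and −0.18 (SE 0.08; adjusted p = 0.292, edgeR). The groups overlapped for Anapc13, at 13.7, 17.7 and 11.1 CPM in control libraries 1, 2 and 3. Libraries 1, 2 and 3 labelled siArid3a had 9.63, 12.5 and 10.4 CPM of it, and 89.9% of its exon sequence is clear of other genes. The groups did not overlap for Anapc2.

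Other kinetochore and centromere genes fell below 0 in 9 of 32 cases, a share of 28.1% beside 51.1% over all genes. Their median was 0.04. An unadjusted p under 0.05 was found for 4 of them, each higher, or 12.5% beside 14.9% over all genes. In this list 16 of 32 lay below 0 under the depth block (median 0.00047), without library 3 labelled siArid3a (0.00072) and without the GC and length trend (0.011), while the median was 0.11 without control library 2 and 0.09 without library 2 labelled siArid3a. Cenpq, of the inner kinetochore, had 51.4, 66.2 and 44.4 CPM in control libraries 1, 2 and 3 and 75.7, 60.9 and 82.5 CPM in libraries 1, 2 and 3 labelled siArid3a. Control library 2 overlapped the range of those labelled siArid3a, the log2 fold change was 0.43 (SE 0.13; adjusted p = 0.167, edgeR), and 86.1% of its exon sequence is clear of other genes. It passed without control library 2 (0.61, edgeR adjusted p = 0.0309). Oip5, which helps to load Cenpa, had 0.30 (SE 0.10; adjusted p = 0.191, edgeR).

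The other condensin and cohesin genes had 4 of 12 below 0 (33.3%, against 51.1% of all genes) and a median of 0.09. At an unadjusted p under 0.05 there were 3 (25%, against 14.9% of all genes). Without the GC and length trend 6 of 12 lay below 0, with a median of 0.0059. The median was 0.045 with the depth block, 0.052 without library 3 labelled siArid3a and at most 0.12 over the alternatives. Pds5a, a regulator of cohesin, had 187, 195 and 196 CPM in control libraries 1, 2 and 3 and 233, 217 and 246 CPM in libraries 1, 2 and 3 labelled siArid3a. All libraries labelled siArid3a were above all controls, at 0.27 (SE 0.08; adjusted p = 0.141, edgeR) and a DESeq2 adjusted p of 0.0348. Ncaph2, of condensin II, had −0.22 (SE 0.07; adjusted p = 0.186, edgeR), with 71.7% of its exon sequence clear of other genes. In the last list, other spindle and cytokinesis genes, 16 of 20 lay below 0 (80%, against 51.1% of all genes) with a median of −0.12. There 4 had an unadjusted p under 0.05 (20%, against 14.9% of all genes). Over the alternatives 14 to 17 of those tested lay below 0, with medians from −0.14 to −0.10. Iqgap3, a scaffold protein gene of dividing cells, had 125, 111 and 137 CPM in control libraries 1, 2 and 3 and 93.3, 109 and 90.1 CPM in libraries 1, 2 and 3 labelled siArid3a. Library 2 labelled siArid3a came close to the lowest control, and the log2 fold change was −0.35 (SE 0.09; adjusted p = 0.128, edgeR). The DESeq2 adjusted p was 0.0495, and without control library 2 edgeR gave −0.42 (adjusted p = 0.0395). Pimreg, a mitotic regulator gene, had −0.25 (SE 0.08; adjusted p = 0.178, edgeR).

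**Figure D5:**
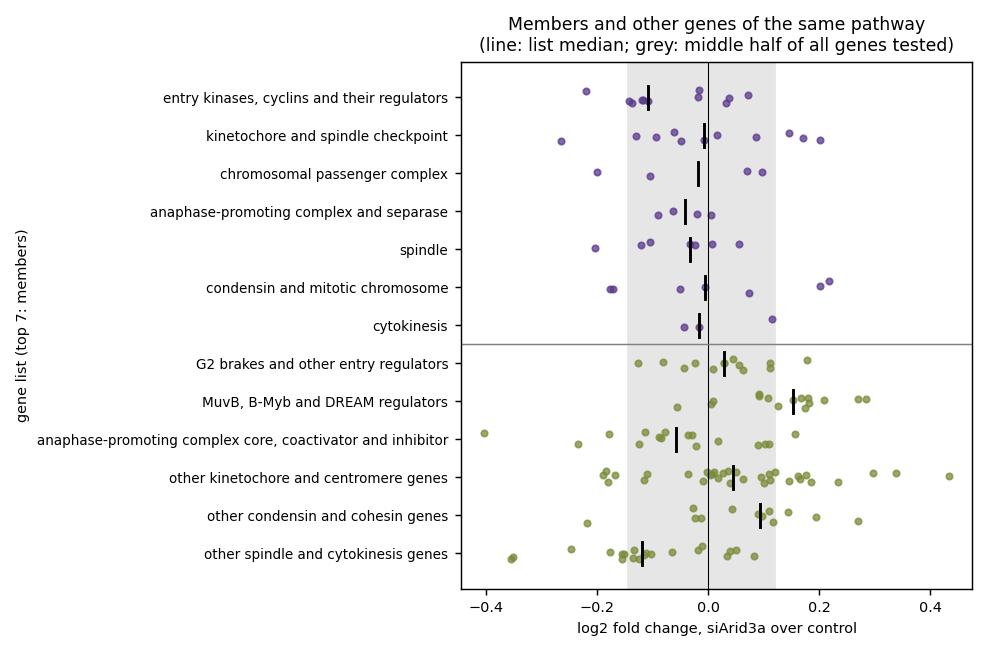
Log2 fold change of each tested gene (points) in the 7 functional groups of members (upper rows) and the 6 lists of other pathway genes (lower rows); black lines are list medians and the grey band is the interquartile range of all 13234 genes. List medians run from −0.12 for other spindle and cytokinesis genes to 0.15 for MuvB, B-Myb and DREAM regulators, and 105 of the 155 points lie in the band.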

How the data were processed

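The values are gene counts of whole reads, unnormalised, in a table the authors deposited for 6 polyA libraries. The submitters' processing notes name STAR 2.7.3a, featureCounts and the mm10 build. Which annotation and strand setting were used is not given in the sources used here. The deposited length equals the whole gene span, so counts may hold intronic reads and may miss reads in shared spans. Exonic lengths, overlaps and GC content came from GENCODE M21 (GRCm38, the assembly of mm10), whose coordinates matched the table for all 47 members.

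In R 4.3.3, edgeR 4.0.16 was used to filter genes (filterByExpr), scale libraries (TMM) and run its robust quasi-likelihood test of group without other terms, with Benjamini-Hochberg adjustment over 13234 genes and a threshold of 0.05. Every 95% interval is from that fit. Standard errors came from dividing each log2 fold change's size by the root of its F statistic. DESeq2 1.42.0 and limma 3.58.1 (voom) were alternatives. The fits were run on simulated data with changes of 1.5-fold or more. Each such change is larger than that of any member, so that run does not cover differences as small as theirs. Within groups, pairs of libraries had a chi-square per degree of freedom of 6.06 to 22.1, more than sampling noise gives.

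The members and lists were chosen with earlier results of these data known. The text names, in each function, the 2 members with the highest CPM and the 2 with the smallest p. It also names the extremes per length and the 2 smallest p of each other list. Other members were named after their values were seen, as were Mybl2, Lin54, Rbbp4, Lin9, Lin52, Rbl2 and Lin37. Lin54 and Hjurp were found by gene ID. Alternatives were other scalings, filters, tools and blocks, removal of trends with GC content and longest-transcript length (loess, span 0.3), restriction to genes with at least 90% of exonic bases outside other genes, and each library left out.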

Additional observations from a re-analysis of the deposited data

How the results depend on the processing

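The call of 0 members held in all alternatives except the removal of the GC and length trend, which called 2, Cenpf and Ckap2. The adjusted p of Cenpf in edgeR, limma-voom and DESeq2 ran from 0.00769 to 0.555, the latter without control library 1. Over all genes, the edgeR test as reported called 0, but 218 were called by DESeq2, 439 with no filter on low counts, 105 with a block for depth, 455 without the GC and length trend, and 0 to 135 when single libraries were left out. The median of the members ran from −0.068 (without library 3 labelled siArid3a) to −0.0067 when single libraries were left out, and 25 to 33 members lay below 0 over all settings. Without the GC and length trend the medians were −0.068 for kinases and cyclins and −0.095 for condensin and chromosome genes. That of the kinetochore genes ran from −0.042 to 0.094 when single libraries were left out. The causes were not tested.

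Genes near 0 turned sign. Under the depth block Arid3a had 0.070, Ccnb1 −0.0045, Cdk1 −0.020, Ube2c −0.011 and Racgap1 0.022. After removal of the GC and length trend, Arid3a had 0.032 and Ccnb1 −0.014. Ube2c had −0.010 with upper-quartile scaling, −0.012 with library totals alone and −0.00054 with limma-voom. When single libraries were left out, the log2 fold change ran from −0.13 to 0.084 for Arid3a, −0.080 to 0.078 for Ube2c, −0.062 to 0.096 for Ccnb1, −0.044 to 0.091 for Cdk1, −0.055 to 0.018 for Racgap1, −0.013 to 0.13 for Birc5, −0.068 to 0.051 for Cdc25c, −0.10 to 0.032 for Hmmr, −0.17 to 0.014 for Pttg1 and −0.093 to 0.030 for Tpx2. Cenpq passed with no filter, without the GC and length trend and without control library 2. Iqgap3 passed under the same settings and DESeq2, and Pds5a with DESeq2. Such changes were counted for Arid3a and the genes picked by CPM, p or level per length, not for the other genes named. Apart from Arid3a, for which 4 values turned sign, 24 of the counted values turned sign, 10 newly passed and 627 did neither. Genes outside the count could turn too, as Ncaph had −0.0062 in edgeR and 0.0010 in DESeq2.

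The labels do not say whether the replicate numbers mark pairs. Deviations from the group means correlated at 0.03, −0.18 and −0.08 for numbers 1, 2 and 3. For unlike numbers the correlations ran from −0.06 to 0.15. Such deviations sum to 0 within each group, so these values cannot settle whether the libraries are paired. With the replicate block 0 genes and 0 members were called, the median of the members was −0.03, Cenpf had an adjusted p of 0.370 in edgeR and Ube2c a log2 fold change of −0.00015. Only library 1 labelled siArid3a correlated best with its own number. With 3 libraries a group, the printed intervals give the precision of each difference only as far as these 6 libraries spread. That spread may be technical.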
